A study of Mus musculus with 7 samples.

Results

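Bmi1, the gene whose Cre allele marks the cells of this series, encodes a subunit of Polycomb repressive complex 1 (PRC1), and the genes described here encode its partners in the Polycomb system. The genes were chosen by name as the enzymes, scaffolds and chromatin readers of both Polycomb complexes: Ezh1, Ezh2, Eed, Suz12, Ring1, Rnf2, Pcgf2, Pcgf6, Cbx7 and Cbx8. All 10 symbols were found among the gene names of the deposited table, which holds 37310 genes, and all 10 passed the filter on low counts that 14626 genes passed. The rule for membership uses no measured value.

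The libraries came from intestinal crypt cells of mice on the diets NWD2 (2 libraries), NWD1 (3 libraries) and AIN76A (2 libraries). NWD1 is a purified diet on a Western pattern, with high fat and little calcium, vitamin D3, fibre and methyl donors, while NWD2 restores its calcium and vitamin D3, and AIN76A serves as the purified control. Every mouse, those on AIN76A included, carried BmicreERT2, a Cre recombinase that tamoxifen activates and that the Bmi1 gene drives, and Rosa26RFP, a red reporter that Cre turns on, and ate its diet between weaning and 3 months of age. The cells were sorted as a pool for strong red fluorescence and Epcam without CD45, and all mice were male except the female of NWD1 replicate 2. The labels do not say when Cre was induced, nor whether each library is 1 animal, so p-values measure the spread between these samples, which may be technical. In such bulk RNA, fewer cells of a type and less RNA per cell cannot be told apart.

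Polycomb proteins keep developmental genes silent through chromatin. PRC2 methylates histone H3 with Ezh1 or Ezh2, which need Eed and Suz12 to act, and PRC1 ubiquitinates histone H2A with Ring1 or Rnf2. Each PRC1 carries 1 PCGF protein. Bmi1 and Pcgf2 belong to canonical PRC1, where a CBX protein reads the PRC2 mark. Pcgf6 belongs to a variant PRC1 without a CBX protein that reads this mark. In the intestine, the PRC1 of Bmi1 is known for holding the cell cycle inhibitor gene Cdkn2a silent in crypt cells.

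The total count per library was 71331627 and 77959407 for NWD2, 44260145, 65822352 and 14034315 for NWD1, and 58419160 and 39657707 for AIN76A. NWD2 replicate 2 stood apart from the rest on the first principal component of all genes tested, at 84.2 against -48.2 to 1.44 for the other 6 libraries. It had the lowest Epcam, 225 CPM (counts scaled to the library's total and, by edgeR's TMM method, to its composition) against 510 to 1338. Other epithelial markers were not low there. Cdh1, at 1149 CPM, and Krt20, at 3409 CPM, were highest in that library. The 6 epithelial markers summed to 8990 CPM there, against 6785 to 10032 CPM in the others. A deposited column of TPM (transcript levels corrected for gene length and depth) headed as NWD2 replicate 3 matches no sample title, while NWD1 replicate 3 has none, so the diet of that library is less certain. The main values that rest on either library are given with and without it. Both NWD2 libraries and NWD1 replicate 3 carried one i5 index primer and the other 4 libraries another, so NWD2 and AIN76A share none. Among the markers of the sorted cells, Hopx, a reserve stem cell marker, lay between 64.0 and 109 CPM. The other reserve stem cell markers were lower. Lrig1 lay between 3.04 and 8.71 CPM, Bmi1 between 2.12 and 5.25, Tert between 2.38 and 4.49 and Mex3a between 0.0161 and 0.426. Absorptive enterocyte markers summed to between 34978 and 79076 CPM and Paneth cell markers to between 6803 and 23196 CPM. The 10 stromal, endothelial and glial markers summed to between 0.27 and 1.43 CPM in every library.

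Of the promoters of the 10 genes, 3 are printed, because Ezh2 and Ezh1 are alternative catalytic subunits of PRC2 with different levels here, and because Ezh2 and Suz12 are the members that hold an element bound by E2F, the family of factors that drives genes of the dividing cell. The windows, from RefSeq on GRCm38.p6, hold 250 bases before the annotated start and the first 12 bases after it, 5′ to 3′ on the gene's strand, with E2F elements in capitals. They lie at chr6:47595019-47595280 on the minus strand for Ezh2, at chr11:101226452-101226713 on the minus strand for Ezh1 and at chr11:79992856-79993117 on the plus strand for Suz12.
Ezh2: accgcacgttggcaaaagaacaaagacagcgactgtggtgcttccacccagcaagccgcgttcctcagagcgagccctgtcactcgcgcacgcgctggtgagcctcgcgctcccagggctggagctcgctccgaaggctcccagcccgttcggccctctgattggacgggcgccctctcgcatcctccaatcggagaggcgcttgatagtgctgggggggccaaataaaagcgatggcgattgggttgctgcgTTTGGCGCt
Ezh1: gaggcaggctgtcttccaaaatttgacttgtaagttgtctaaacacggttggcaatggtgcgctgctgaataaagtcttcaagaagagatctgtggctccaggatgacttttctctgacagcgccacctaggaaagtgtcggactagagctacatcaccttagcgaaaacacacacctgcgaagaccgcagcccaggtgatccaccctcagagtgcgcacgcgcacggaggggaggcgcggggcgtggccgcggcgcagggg
Suz12: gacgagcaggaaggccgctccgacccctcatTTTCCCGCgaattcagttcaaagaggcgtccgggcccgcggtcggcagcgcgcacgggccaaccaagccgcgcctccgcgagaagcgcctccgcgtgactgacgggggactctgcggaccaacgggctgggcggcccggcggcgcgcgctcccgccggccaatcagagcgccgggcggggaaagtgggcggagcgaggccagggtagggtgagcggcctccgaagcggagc

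Ezh2 holds TTTGGCGC with its first base at position 4 after the start, and Suz12 holds TTTCCCGC with its first base 219 bases before the start. On both strands of the 300 bases from 250 before to 50 after the start, 0.514% of 32851 promoters hold TTTGGCGC and 1.07% hold TTTCCCGC. The Ezh1 window has neither. CCAAT was found in 5 of the 10 members (Ezh2, Eed, Suz12, Cbx7 and Cbx8), against 37.4% of all promoters, and the GC box GGGCGG in 7 of 10 (Suz12, Ring1, Rnf2, Pcgf2, Pcgf6, Cbx7 and Cbx8), against 35.7%. The E-box CACGTG was found in Pcgf2 and Cbx8, against 7.15% of all promoters, and TATAAA in 0 of 10, against 13.6%. All 10 windows were rich in G and C, at 54.7% to 74.0% against a median of 52.7% over all promoters, and held 10 to 41 CpG dinucleotides against a median of 7. Such matches describe the letters of these windows and are not evidence of binding.

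The catalytic subunits of PRC2 differed most from each other in NWD2 replicate 2. Values per library follow as CPM in replicate order. Ezh2, the methyltransferase known from dividing cells, had 14.6 and 5.44 CPM in NWD2, 17.5, 16.4 and 15.2 CPM in NWD1, against 9.52 and 13.6 CPM in AIN76A. The 3 NWD1 libraries lay above all 4 others, and the lowest value was that of NWD2 replicate 2. Ezh1, its paralog known from resting and differentiated cells, had 38.2 and 59.8 CPM in NWD2, 29.7, 40.7 and 49.3 CPM in NWD1, against 34.6 and 38.2 CPM in AIN76A. The diets overlapped, and here NWD2 replicate 2 was the highest library.

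In the noncatalytic core of PRC2, Eed varied about as much as Ezh1, and Suz12 varied least of the members. Eed, which binds the methylated histone tail and stimulates the enzyme, had 19.7 and 11.3 CPM in NWD2, 23.8, 16.3 and 14.5 CPM in NWD1, against 15.7 and 15.8 CPM in AIN76A. The AIN76A libraries were nearly equal and lay inside the range of both other diets. Suz12, the scaffold of the complex, had 10.8 and 8.67 CPM in NWD2, 11.9, 10.01 and 11.2 CPM in NWD1, against 13.4 and 10.4 CPM in AIN76A. Its highest library was 1.55 times its lowest, the narrowest range among the members.

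The ubiquitin ligases of PRC1 went separate ways in NWD2 replicate 2. Ring1 had 7.86 and 3.85 CPM in NWD2, 10.2, 7.67 and 8.17 CPM in NWD1, against 6.86 and 9.72 CPM in AIN76A. NWD2 replicate 2 was the lowest, and NWD2 replicate 1 lay within the range of the other diets. Rnf2 (Ring1B), the ligase that mouse embryos cannot do without, had 20.3 and 23.4 CPM in NWD2, 20.8, 14.1 and 19.6 CPM in NWD1, against 18.9 and 20.2 CPM in AIN76A. NWD2 replicate 2 was the highest, and both NWD2 libraries lay above both AIN76A libraries, the nearest by less than 1 CPM.

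Among the PCGF subunits, Pcgf2 (Mel18), the closest paralog of Bmi1, had 1.68 and 0.708 CPM in NWD2, 1.66, 1.77 and 1.06 CPM in NWD1, against 1.31 and 0.919 CPM in AIN76A. It was counted least of the 10 genes, with 16 to 123 counts per library, and the diets overlapped. Pcgf6, which directs a variant PRC1 to germ cell genes in mouse embryonic stem cells, had 6.42 and 1.67 CPM in NWD2, 8.48, 6.59 and 6.51 CPM in NWD1, against 2.74 and 5.05 CPM in AIN76A. As for Ezh2, the NWD1 libraries lay above all others, with NWD2 replicate 1 close below them. Bmi1 itself had 3.63 and 2.56 CPM in NWD2, 3.91, 2.12 and 5.25 CPM in NWD1, against 2.41 and 3.72 CPM in AIN76A. Its diets overlapped, and its highest and lowest library were both on NWD1.

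The chromodomain readers were opposite in the same library. Cbx7, which binds the PRC2 mark and represses Cdkn2a in mouse fibroblasts, had 2.43 and 0.483 CPM in NWD2, 3.91, 2.79 and 2.26 CPM in NWD1, against 1.78 and 2.68 CPM in AIN76A. NWD2 replicate 2 had 30 counts and lay 8.10 times below NWD1 replicate 1, the widest range among the members. Cbx8, another reader of the mark, had 8.24 and 9.30 CPM in NWD2, 9.29, 5.28 and 6.84 CPM in NWD1, against 7.89 and 6.75 CPM in AIN76A. Both NWD2 libraries lay above both AIN76A libraries, and NWD2 replicate 2 was the highest of all.

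**Figure D1:**
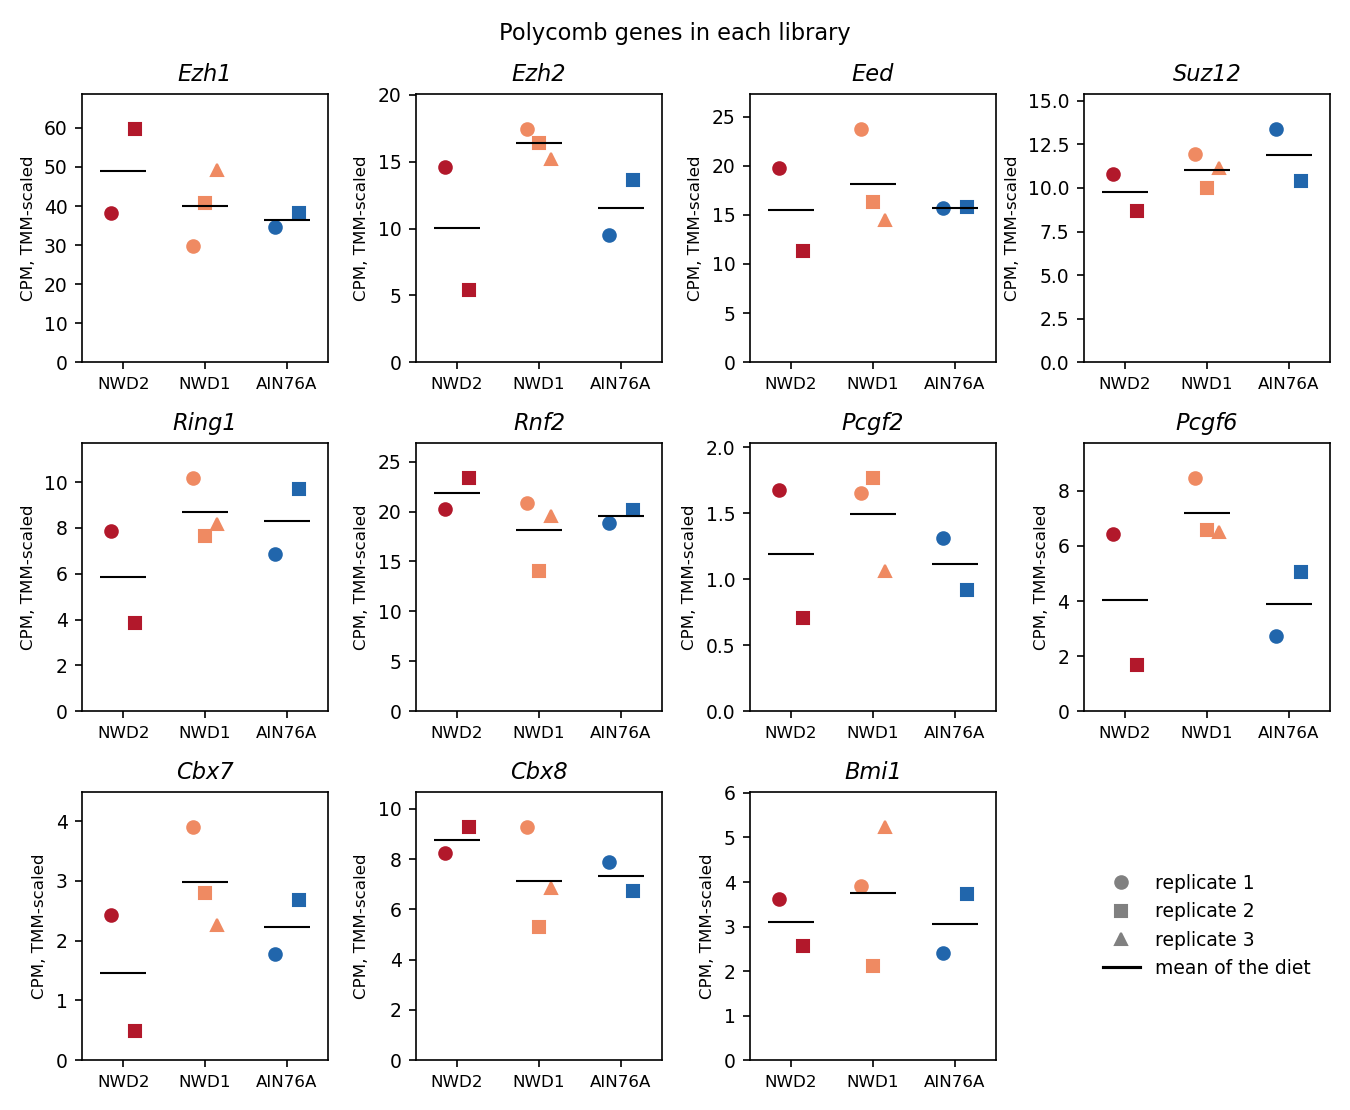
TMM-scaled CPM of the 10 genes and Bmi1 in each library, 1 panel per gene on its own axis, by diet, with symbols for replicates and a line at the mean of each diet. NWD2 replicate 2 is the lowest library for Cbx7, at 0.483 CPM, and for 6 other members, and the highest for Ezh1, at 59.8 CPM, Rnf2 and Cbx8.

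Every member was thus lowest or highest in NWD2 replicate 2. It was lowest there for 7 members (Ezh2, Eed, Suz12, Ring1, Pcgf2, Pcgf6 and Cbx7) and highest for 3 (Ezh1, Rnf2 and Cbx8), while over all genes tested 22.5% were lowest and 23.1% highest in that library. The standard deviation (SD) of log2 CPM over the 7 libraries was largest for Cbx7, at 0.94, followed by Pcgf6, at 0.83, and Ezh2, at 0.59. It was smallest for Suz12, at 0.20, and Rnf2, at 0.23. Of the genes tested with a like average level, 88.9% had a lower SD than Cbx7. The 5 genes with the pattern most like that of Cbx7 over the 7 libraries were Mrps24, Eif3f, Gtf3a, Imp3 and Asf1a, with a root mean square difference of centred log2 CPM of 0.12 to 0.14. For Bmi1, the member of nearest pattern was Rnf2, at 0.39, followed by Ring1, at 0.43, and the most distant was Cbx7, at 0.82. Of all genes tested, 5.22% were nearer to Bmi1 than Rnf2 was, 9.48% nearer than Ring1 and 80.1% nearer than Cbx7. The summed level of 20 proliferation markers was 725 and 406 CPM in NWD2, 717, 652 and 461 CPM in NWD1, against 677 and 821 CPM in AIN76A. The library of lowest Ezh2 also had the lowest sum, but the other libraries did not keep this order. NWD1 replicate 3, with the next lowest sum, had Ezh2 at 15.2 CPM. AIN76A replicate 1, with a sum of 677 CPM, had the next lowest Ezh2, at 9.52 CPM. The 8 absorptive enterocyte markers summed to 79076 CPM in NWD2 replicate 2 against 34978 to 54359 CPM in the other libraries. The part of either list in the member values was not tested.

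Per length, in the TPM of the 6 libraries with a column of their own, the members formed an upper group of 3 and a lower group of 7. Eed had the highest median at 14.7 TPM (range 8.32 to 21.5), followed by Rnf2 at 12.7 TPM (9.62 to 13.8) and Ezh1 at 10.04 TPM (7.42 to 13.1). These 3 genes were the top 3 in each of the 6 libraries, and the range of Ezh1 did not overlap that of Ring1, the next gene at 4.75 TPM (1.93 to 6.30). Ring1, Ezh2 at 4.45 TPM (1.43 to 5.65), Suz12 at 4.199 TPM (2.85 to 4.84), Cbx8 at 3.90 TPM (2.97 to 5.06) and Pcgf6 at 2.74 TPM (0.666 to 4.16) each overlapped their neighbours in the order. Bmi1 stood at 1.42 TPM (0.969 to 1.97), Cbx7 at 1.32 TPM (0.207 to 2.07) and Pcgf2 was lowest at 0.769 TPM (0.335 to 1.06), again with overlapping ranges. Within either group, no neighbours in the order differed beyond their spread over libraries.

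**Figure D2:**
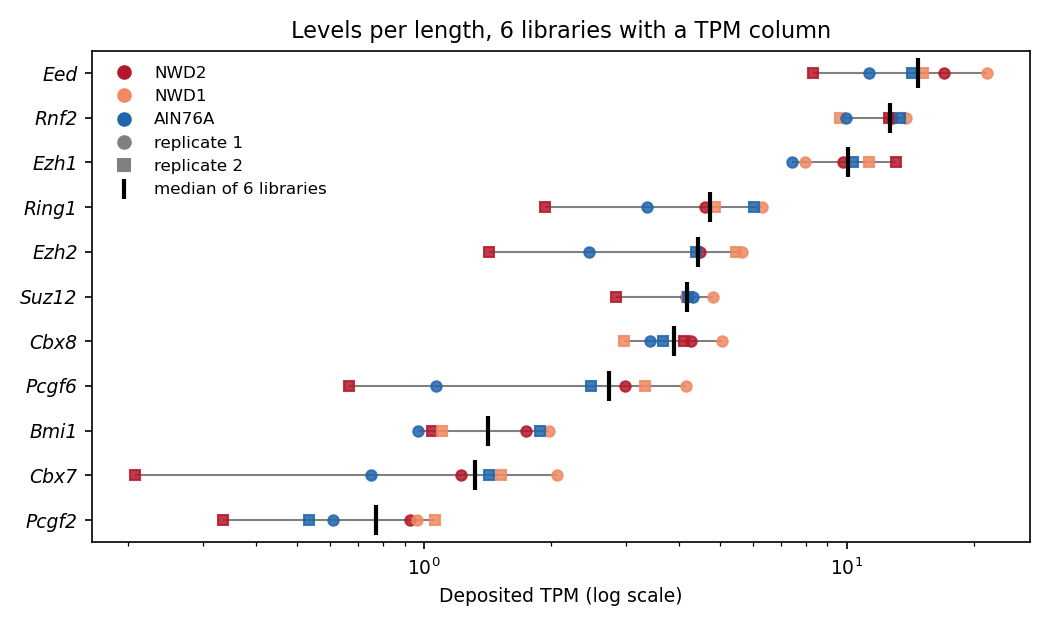
Deposited TPM of the 10 genes and Bmi1 on a log axis, ordered by the median of the 6 libraries with a TPM column, with colours for diets, symbols for replicates and a line over the range. Eed, Rnf2 and Ezh1 have medians of 10.04 to 14.7 TPM, and the gap below Ezh1 is the only one between neighbours without overlap.

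Paralogs that replace each other in a complex were compared within a library, which needs no scaling between libraries. The TPM of Ezh2 was 0.109 to 0.708 times that of Ezh1, so that Ezh1 was the higher of the PRC2 enzymes in all 6 libraries. Rnf2 had 1.97 to 6.52 times the TPM of Ring1, Cbx8 had 1.95 to 19.9 times that of Cbx7, and Pcgf2 had 0.285 to 0.966 times that of Bmi1. These orders held in every library, whatever the diet.

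Between diets, the log2 ratio of counts of Ezh2 over Ezh1 was -1.39 and -3.46 in NWD2, -0.76, -1.31 and -1.70 in NWD1, and -1.86 and -1.49 in AIN76A. NWD2 replicate 2 was the lowest. NWD2 replicate 1 lay within the range of NWD1 and above both AIN76A libraries. The ratio of Rnf2 over Ring1 was 1.37 and 2.61 in NWD2, 1.03, 0.88 and 1.26 in NWD1, and 1.46 and 1.05 in AIN76A. Both NWD2 libraries lay above all 3 NWD1 libraries, with a difference of means of 0.93 and an exact two-sided permutation p of 0.1, the smallest that 2 against 3 samples can give, or 0.6 after Benjamini-Hochberg adjustment over 12 tests. The ratio of Cbx8 over Cbx7 was 1.76 and 4.27 in NWD2, 1.25, 0.92 and 1.60 in NWD1, and 2.15 and 1.33 in AIN76A. It too was higher in both NWD2 libraries than in all NWD1 libraries, by 1.76 on average, with the same exact permutation p of 0.1 and adjusted p of 0.6. Without NWD2 replicate 2 these differences were 0.31 for Rnf2 over Ring1 and 0.51 for Cbx8 over Cbx7. The ratio of Pcgf2 over Bmi1 was -1.11 and -1.85 in NWD2, -1.24, -0.26 and -2.30 in NWD1, and -0.88 and -2.02 in AIN76A, with overlap throughout. No adjusted p of the 12 tests was under 0.6, and 2 against 2 samples cannot give a p below 0.333.

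**Figure D3:**
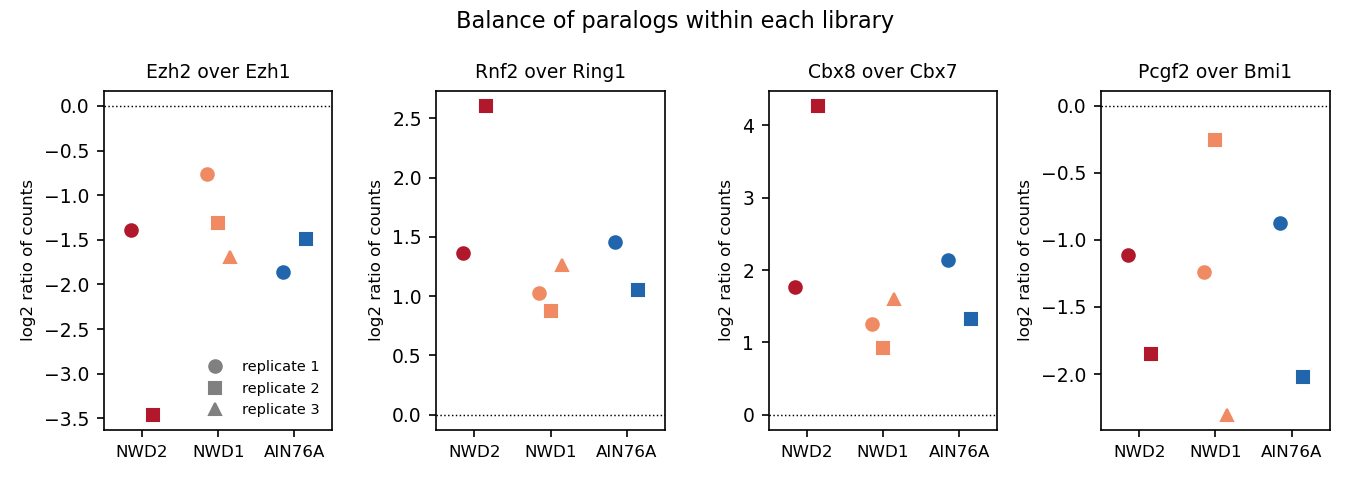
Log2 ratio of counts of 4 pairs of paralogs within each library, by diet, with symbols for replicates and a dotted line at a ratio of 1 (0 on this scale). Ezh2 over Ezh1 is lowest, at -3.46, and Cbx8 over Cbx7 highest, at 4.27, in NWD2 replicate 2.

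NWD2 against NWD1 sets the Western pattern with calcium and vitamin D3 restored against the Western pattern itself. Of the 10 members, 3 were higher and 7 lower in NWD2, with a median log2 fold change of -0.29 against 0.049 over all genes tested, of which 53.5% were higher. In edgeR's quasi-likelihood test with Benjamini-Hochberg adjustment over all genes, 0 of 10 members and 0% of the 14626 genes passed an adjusted p under 0.05. At an unadjusted p under 0.05 there were 0 members against 7.89% of all genes, and DESeq2 called 0 members against 1.23% of all genes, and limma voom 0 members against 0%. The libraries of the 2 diets did not overlap for 2 of 10 members, Ezh2 and Pcgf6, both lower in NWD2, against 25.3% of all genes in either direction and 14.5% in this one. That share is near the background.

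The member of largest difference was Cbx7, which averaged 1.46 ± 1.38 CPM in NWD2 (SD, n = 2) and 2.99 ± 0.844 CPM in NWD1 (SD, n = 3). Its log2 fold change was -1.04 (SE 0.64, 95% interval -2.47 to 0.40, edgeR adjusted p = 0.734). Pcgf6 averaged 4.04 ± 3.35 CPM in NWD2 and 7.19 ± 1.12 CPM in NWD1, a log2 fold change of -0.83 (SE 0.55, interval -2.06 to 0.40, edgeR adjusted p = 0.737). Both intervals include 0 and also a halving of the level. Ezh2 averaged 10.02 ± 6.48 CPM in NWD2 and 16.4 ± 1.14 CPM in NWD1, at -0.71 (SE 0.41, interval -1.64 to 0.22, edgeR adjusted p = 0.719). Ring1 averaged 5.85 ± 2.84 CPM in NWD2 and 8.68 ± 1.34 CPM in NWD1, at -0.57 (SE 0.38, interval -1.43 to 0.29, edgeR adjusted p = 0.743). The other 6 members lay between -0.34 and 0.30.

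These 4 differences rested on NWD2 replicate 2. Without it the log2 fold changes were -0.30 for Cbx7, -0.16 for Pcgf6, -0.16 for Ezh2 and -0.14 for Ring1, and with NWD2 replicate 2 as the only NWD2 library they were -2.67, -2.14, -1.63 and -1.21 in the same order. Without NWD2 replicate 1, 4 members (these 4) had an unadjusted edgeR p under 0.05, against 15.8% of all genes in that fit, and in NWD2 against AIN76A the same 4, against 13% of all genes. The median over members was -0.037 without NWD2 replicate 2 and -0.44 without NWD1 replicate 3, where 3 of 10 members did not overlap, against 38.7% of all genes. Markers of 2 cell types were low in both NWD2 libraries. The 10 enteroendocrine markers summed to 427 and 599 CPM in NWD2 against 1607 to 1889 CPM in NWD1 and 1698 to 2149 CPM in AIN76A, and the 10 tuft cell markers to 74.4 and 87.6 CPM in NWD2 against 140 to 383 CPM in NWD1 and 184 to 321 CPM in AIN76A. Each of these 20 genes was lower in NWD2 than in NWD1 at an unadjusted edgeR p under 0.05, against 6.75% of all genes, and 0 passed the adjusted p. Goblet cell markers, at 7443 and 9118 CPM in NWD2 against 4749 to 7573 CPM in NWD1, and Paneth cell markers, at 6803 and 12899 CPM in NWD2 against 8122 to 13072 CPM in NWD1, overlapped. The part of these cells in the member values was not tested.

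NWD2 against AIN76A compares the restored Western pattern with the control diet. Of the members, 5 were higher and 5 lower in NWD2, with a median log2 fold change of 0.021 against -0.030 over all genes, of which 47.4% were higher. By edgeR's adjusted p, 0 of 10 members and 0% of all genes passed, and at an unadjusted p under 0.05 there were 0 members against 3.83% of all genes. DESeq2 called 0 members against 0.356% of all genes, and limma voom 0 members against 0%. Rnf2 and Cbx8 did not overlap between the diets, both higher in NWD2, which is 2 of 10 members against 26.4% of all genes in either direction and 13.2% in this one.

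Rnf2 averaged 21.8 ± 2.21 CPM in NWD2 and 19.5 ± 0.919 CPM in AIN76A (SD, n = 2 each), a log2 fold change of 0.16 (SE 0.30, 95% interval -0.51 to 0.83, edgeR adjusted p = 0.996). Cbx8 averaged 8.77 ± 0.746 CPM in NWD2 and 7.32 ± 0.805 CPM in AIN76A, at 0.26 (SE 0.36, interval -0.55 to 1.08, edgeR adjusted p = 0.996). Small steps thus separated these groups. Ring1 averaged 5.85 ± 2.84 CPM in NWD2 and 8.29 ± 2.02 CPM in AIN76A, at -0.50 (SE 0.41, interval -1.43 to 0.43, edgeR adjusted p = 0.996). Cbx7 averaged 1.46 ± 1.38 CPM in NWD2 and 2.23 ± 0.638 CPM in AIN76A, at -0.61 (SE 0.68, interval -2.14 to 0.92, edgeR adjusted p = 0.996). Without NWD2 replicate 2, Ring1 was at -0.072, Rnf2 at 0.059 and Cbx8 at 0.18, and Cbx7 turned to 0.13. With the i5 index as a term, Cbx7 was at -0.040 and Rnf2 at -0.0036. Only NWD1 carried both primers, so this term rests on NWD1 replicate 3 against the other NWD1 libraries. The other 6 members lay between -0.29 and 0.43. Paneth cell markers summed to between 6803 and 12899 CPM in NWD2 against 16283 to 23196 CPM in AIN76A. Leukocyte markers summed to 9.81 and 14.8 CPM in NWD2 against 5.13 and 6.90 CPM in AIN76A. Of the 11 leukocyte markers tested, 10 were higher in NWD2 and 1 lower. The lower was Ptprc, which encodes CD45, at 1.17 and 1.48 CPM in NWD2 against 3.94 and 2.59 CPM in AIN76A. The part of these cells in the member values was not tested.

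NWD1 against AIN76A compares the Western pattern with the control diet, and shares its NWD1 libraries with the first comparison and its AIN76A libraries with the second. Of the members, 7 were higher and 3 lower in NWD1, with a median log2 fold change of 0.17 against 0.0078 over all genes, of which 50.6% were higher. By edgeR's adjusted p, 0 of 10 members and 0% of all genes passed, and at an unadjusted p under 0.05 there were 0 members against 3.42% of all genes. DESeq2 called 0 members and 1 gene in all, and limma voom 0 of both. Ezh2 and Pcgf6 did not overlap, both higher in NWD1, which is 2 of 10 members against 20.1% of all genes in either direction and 11.4% in this one.

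Pcgf6 averaged 7.19 ± 1.12 CPM in NWD1 (SD, n = 3) and 3.90 ± 1.64 CPM in AIN76A (SD, n = 2), a log2 fold change of 0.89 (SE 0.55, 95% interval -0.35 to 2.13, edgeR adjusted p = 0.878). Ezh2 averaged 16.4 ± 1.14 CPM in NWD1 and 11.6 ± 2.89 CPM in AIN76A, at 0.50 (SE 0.41, interval -0.43 to 1.43, edgeR adjusted p = 0.878). Neither difference rested on NWD1 replicate 3, without which Pcgf6 was at 0.95 and Ezh2 at 0.55, and 5 of 10 members did not overlap between the 2 libraries left on each diet, against 31.3% of all genes. They did move with the AIN76A libraries: without AIN76A replicate 1, Pcgf6 was at 0.50 and Ezh2 at 0.26, and without AIN76A replicate 2 they were at 1.396 and 0.78. Without NWD2 replicate 2, whose spread enters the fit, the values were 0.89 for Pcgf6 and 0.50 for Ezh2. The other 8 members lay between -0.11 and 0.44. Leukocyte markers summed to between 9.66 and 26.6 CPM over 12 genes in NWD1 against 5.13 and 6.90 CPM in AIN76A, with Ptprc, which encodes CD45, at 1.51 to 5.75 CPM in NWD1 and 2.59 to 3.94 CPM in AIN76A and Cd2 at 0 counts in 6 of the 7 libraries. Goblet cell markers summed to between 4749 and 7573 CPM in NWD1 against 8220 and 16942 CPM in AIN76A, and Paneth cell markers to between 8122 and 13072 CPM in NWD1 against 16283 and 23196 CPM in AIN76A. The part of these cells was not tested.

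**Figure D4:**
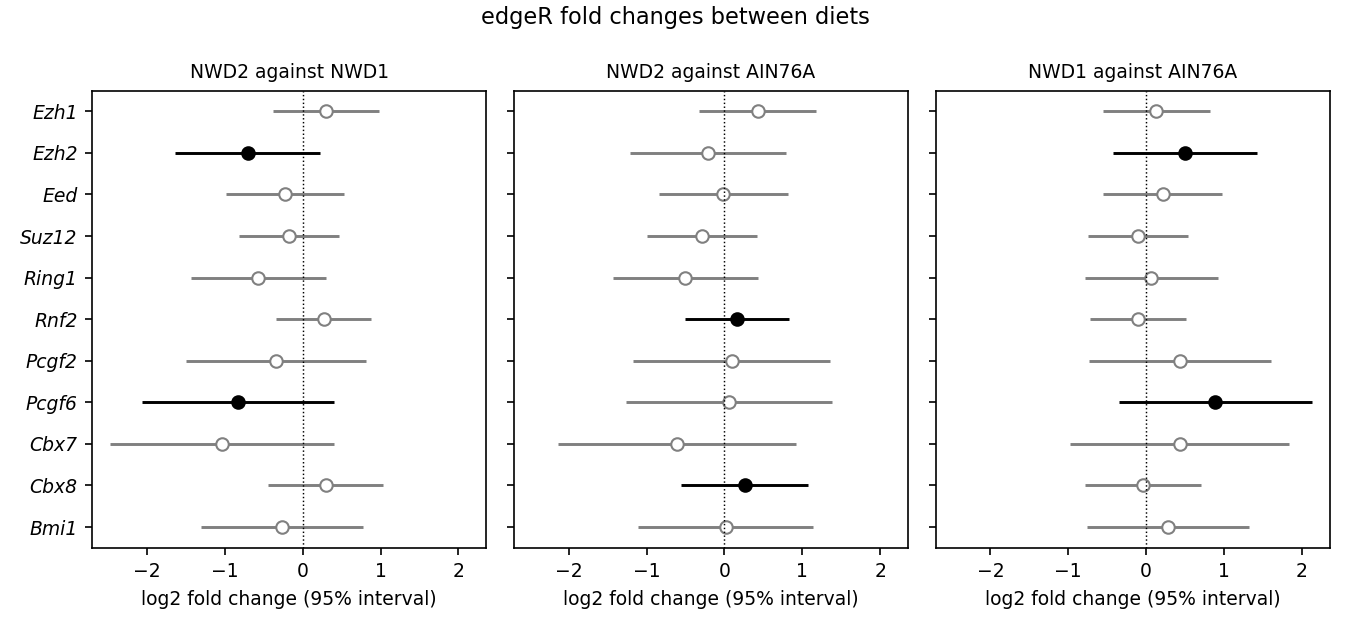
Log2 fold change of the 10 genes and Bmi1 in each comparison, with the edgeR 95% interval as a bar. Filled points mark genes whose libraries do not overlap between the diets, and every bar crosses the dotted line at 0, with the lowest point at -1.04 for Cbx7 in NWD2 against NWD1.

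In a joint test of any difference among the 3 diets, the smallest unadjusted edgeR p of a member was 0.208, for Pcgf6, followed by 0.236 for Ezh2, against 5.43% of all genes at an unadjusted p under 0.05. All 10 intervals included 0 in each comparison. An interval inside ±1 on the log2 scale, which leaves out a doubling or a halving, was reached by Ezh1, Eed, Suz12 and Rnf2 in NWD2 against NWD1, by Eed, Suz12 and Rnf2 in NWD2 against AIN76A, and by Ezh1, Eed, Suz12, Ring1, Rnf2 and Cbx8 in NWD1 against AIN76A. For Cbx7, the least precise, the interval reached 1.41 to 1.53 to either side of the estimate. Bmi1 was at -0.26 in NWD2 against NWD1, 0.014 in NWD2 against AIN76A and 0.28 in NWD1 against AIN76A, with overlap in each.

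The other genes of the Polycomb system were read from lists of PRC2 accessory, canonical PRC1 and variant PRC1 subunits, 26 genes without Bmi1. Of these, 10 were higher and 16 lower in NWD2 than in NWD1, 17 were higher and 9 lower in NWD2 than in AIN76A, and 18 were higher and 8 lower in NWD1 than in AIN76A. By edgeR's adjusted p 0 of the 26 genes passed in each comparison. At an unadjusted edgeR p under 0.05 there were 1 (E2f6), 0 and 2 (Aebp2 and Phc1) in the same order. The shares of all genes tested were 7.89%, 3.83% and 3.42%. The libraries of the 2 diets did not overlap for 30.8%, 46.2% and 38.5% of the 26 genes, against 25.3%, 26.4% and 20.1% of all genes. By direction these were 1 higher and 7 lower, 8 higher and 4 lower, and 9 higher and 1 lower. The difference from the share of all genes was not tested. Of all genes tested, 53.5%, 47.4% and 50.6% were higher in these comparisons. E2f6, which tethers the Pcgf6 complex to DNA, had 5.23 and 0.885 CPM in NWD2, 9.33, 9.45 and 6.97 CPM in NWD1, against 3.01 and 5.76 CPM in AIN76A. It was higher in all NWD1 libraries than in all others and lowest in NWD2 replicate 2. Its log2 fold change was -1.49 (SE 0.66, edgeR adjusted p = 0.630) in NWD2 against NWD1, and -0.71 without NWD2 replicate 2. Rybp, a variant PRC1 subunit that stimulates the ligase, had 2.404 and 2.24 CPM in NWD2, 2.73, 3.47 and 3.32 CPM in NWD1, against 1.80 and 1.79 CPM in AIN76A, and was at 0.82 in NWD1 against AIN76A (SE 0.37, edgeR adjusted p = 0.878).

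Aebp2, which helps PRC2 bind nucleosomes, had 11.2 and 7.37 CPM in NWD2, 14.9, 15.6 and 13.2 CPM in NWD1, against 8.86 and 8.54 CPM in AIN76A. It was at 0.75 in NWD1 against AIN76A (SE 0.30, edgeR adjusted p = 0.878). The NWD1 libraries lay above all others. Genes of these lists were named for the smallest p in the joint test of all diets. Separation of the diets among them thus follows in part from that choice. Phc1, which polymerises canonical PRC1, had 5.37 and 3.85 CPM in NWD2, 5.15, 7.18 and 4.91 CPM in NWD1, against 2.39 and 3.46 CPM in AIN76A, and was at 0.98 in NWD1 against AIN76A (SE 0.38, edgeR adjusted p = 0.878). Its AIN76A libraries were the lowest. Phf1, a PRC2 accessory subunit, was at 0.47 in NWD1 against AIN76A (SE 0.30).

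Opposing enzymes were also measured. The 7 enzymes and cofactors that remove the Polycomb marks were all higher in NWD1 than in AIN76A, with a median of 0.31. By edgeR, 0 were called by the adjusted p or at an unadjusted p under 0.05. Of all genes tested, 50.6% were higher in NWD1 than in AIN76A, and 3.42% had an unadjusted edgeR p under 0.05. In NWD2 against NWD1, 5 of the 7 were higher and 2 lower, with a median of 0.18, against 53.5% of all genes higher. In NWD2 against AIN76A, 6 were higher and 1 lower, with a median of 0.43, against 47.4% of all genes higher. The rise over AIN76A was thus not particular to NWD1. Kdm6b, an H3 demethylase, was at -0.64 in NWD2 against NWD1 (SE 0.34) and at -0.31 without NWD2 replicate 2, with 9.66 and 5.79 CPM in NWD2, 11.4, 14.7 and 9.96 CPM in NWD1, against 7.62 and 8.68 CPM in AIN76A. Mysm1, an H2A deubiquitinase, was at 0.59 in NWD1 against AIN76A (SE 0.29), with 18.1, 22.6 and 21.1 CPM in NWD1 against 11.9 and 15.5 CPM in AIN76A. Of 11 Trithorax and COMPASS genes, which place the activating H3 mark, 9 were higher and 2 lower in NWD1 than in AIN76A, with a median of 0.18, among them Kmt2b at 0.73 (SE 0.35) and Kmt2a at 0.70 (SE 0.39, and 0.44 without NWD1 replicate 2), and 0 were called or reached an unadjusted p under 0.05. In NWD2 against AIN76A, 8 of these 11 genes were higher and 3 lower, with a median of 0.18.

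**Figure D5:**
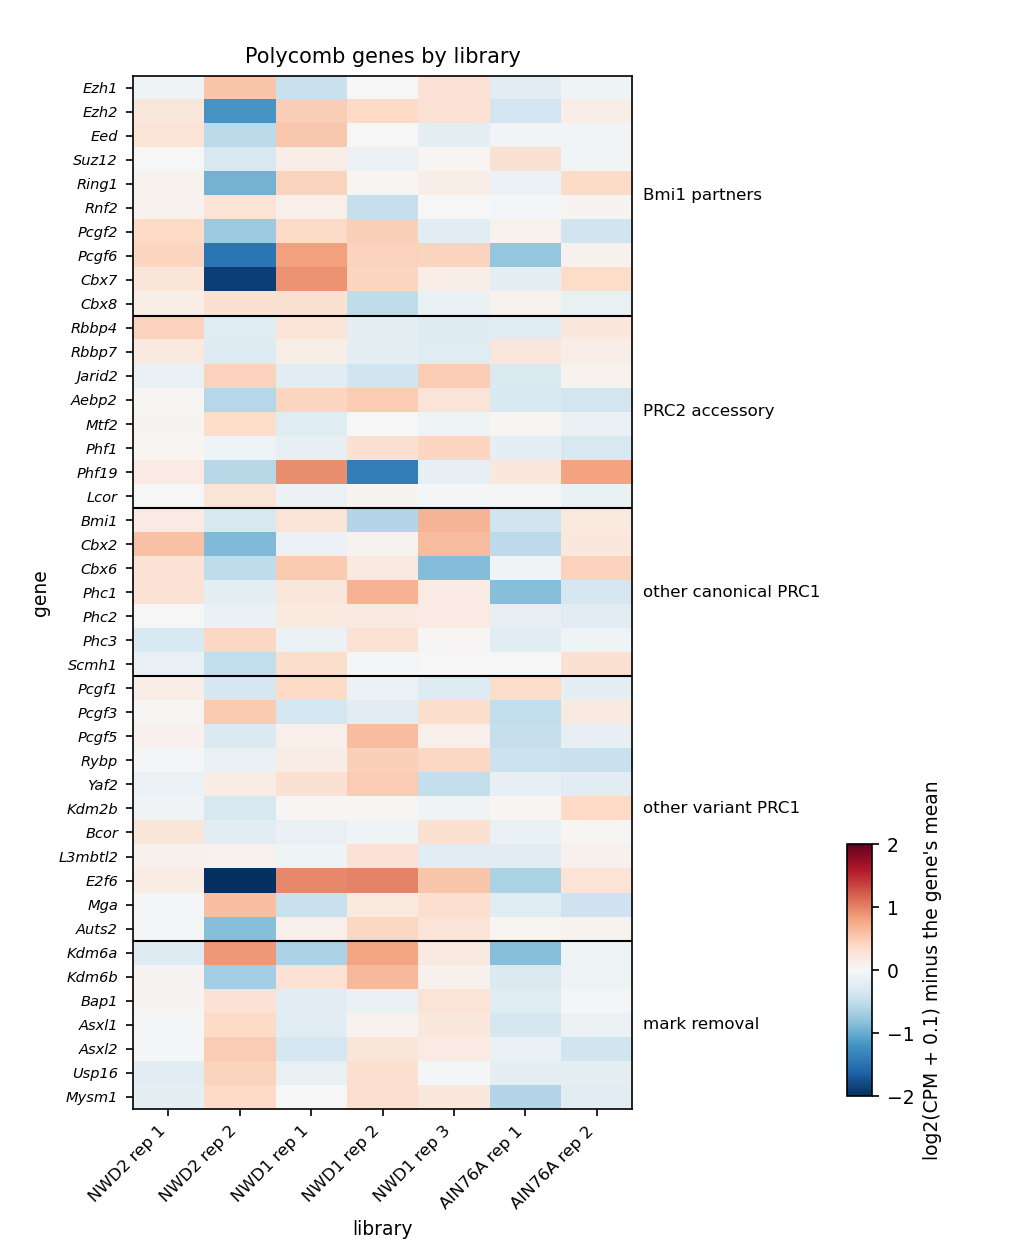
Log2 of CPM + 0.1 minus the mean of the gene over the 7 libraries, for the 10 genes, other Polycomb subunits with Bmi1, and the enzymes that remove the marks, with the colour scale limited to ±2. The darkest fields are Cbx7, at 0.483 CPM, and E2f6, at 0.885 CPM, in NWD2 replicate 2.

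Among classical targets of the complexes, Cdkn2a and the Hox genes were near silent, and Cdkn2b overlapped between diets. Cdkn2a had 5 counts in NWD1 replicate 1 and 0 counts in the other 6 libraries, where 3 counts, the limit that a count of 0 allows, would be 0.0412 to 0.199 CPM. Of the 21 genes of Hox clusters A and B, 6 passed the filter on low counts, 3 had no count in any library, and the highest value was 0.921 CPM, for Hoxa10. At these low levels, the 21 genes summed to 1.35 to 2.39 CPM in NWD2, 2.12 to 3.11 CPM in NWD1 and 2.83 to 3.17 CPM in AIN76A. All 6 tested were lower in NWD2 than in AIN76A. Of these, 0 passed edgeR's adjusted p and 1 (Hoxb7) had an unadjusted edgeR p under 0.05, against 3.83% of all genes. Cdkn2b, the neighbour of Cdkn2a, was by contrast well measured, with 95.7 and 61.3 CPM in NWD2, 90.5, 62.5 and 122 CPM in NWD1, against 85.1 and 101 CPM in AIN76A. Its diets overlapped. Cdkn2c, from the same list, had 4.507 and 1.98 CPM in NWD2 against 4.519 and 4.86 CPM in AIN76A. These did not overlap, by a narrow gap, at a log2 fold change of -0.53 (SE 0.45, edgeR adjusted p = 0.996). Cdkn1a overlapped between diets. The floors given for Cdkn2a cover counting error only.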

How the data were processed

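RNA from bulk-sorted cells was amplified with SMART-Seq v4 and made into Nextera XT paired-end libraries, per the labels' protocols, which keeps no record of strand. The deposited values are raw counts per Ensembl gene and, in a second table, TPM by the authors, with gene symbols. The submitters' processing notes name STAR 2.4.2a, HTSeq 0.6.1, edgeR and the build mm9; annotation and strand setting are not given in the sources used here. In a later annotation, exons of Ezh2, Eed, Suz12, Rnf2 and Cbx7 overlap a gene on the other strand over 1.54% to 6.82% of their bases, where reads cannot be told apart. The 1 TPM column matching no sample was not used.

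Counts were tested with edgeR 4.0.16 in R 4.3.3 by the quasi-likelihood F test, with TMM scaling, filterByExpr, robust fitting and diet as the only term over all 7 libraries (4 residual degrees of freedom, biological coefficient of variation 0.363). Benjamini-Hochberg adjustment ran over all 14626 genes tested, with calls at 0.05. The fits were tested on simulated data. The 95% intervals come from the fitted log2 fold change, its SE and the fit's degrees of freedom. A member's fold change was printed singly where its unadjusted p was under 0.05, its size was at least 0.5 or the diets did not overlap. Of each related list, the 2 genes of smallest p in the joint test of all diets were named, except 1 that is not reported here. Likeness used the 5 nearest genes. Alternatives were other scalings and filters, thinned counts, DESeq2 1.42.0, limma 3.58.1 on counts (voom) and on log2 TPM, replicate number or i5 index as a term, fits of only the 2 diets compared, and each library left out in turn. The members and lists were chosen with earlier results of these data known.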

Additional observations from a re-analysis of the deposited data

How the results depend on the processing

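No member passed an adjusted p under 0.05 under any of the 20 alternatives, the smallest being 0.0866 for Cbx7 in NWD2 against NWD1 without NWD2 replicate 1. Comparisons follow in the order NWD2 against NWD1, NWD2 against AIN76A and NWD1 against AIN76A. Over all genes, DESeq2 called 180, 52 and 1 and no filter on low counts 384, 190 and 85 (457 in the joint test), where the edgeR fit called 0, with 1154, 560 and 500 at an unadjusted p under 0.05, and limma voom 0. An i5 index term called 2, 1 and 0 genes (joint test 1), only the 2 diets compared called 6 in NWD2 against AIN76A, log2(TPM + 1) called 1 in NWD2 against NWD1 and 1 in NWD1 against AIN76A, and log2(TPM + 0.1) called 2 in NWD1 against AIN76A. The causes were not tested. With no filter, 1 member had an unadjusted p under 0.05 in NWD2 against NWD1, against 7.99% of all genes. In NWD1 against AIN76A there was also 1 with no filter, against 5.56%. Limma voom gave 1 in NWD2 against NWD1, against 9.64% of all genes. Only the 2 diets compared gave 1 in NWD1 against AIN76A, against 5.13%. The members' median was -0.67 with log2(TPM + 0.1) in NWD2 against NWD1. Members without overlap numbered 1 with no filter in NWD2 against NWD1, against 19% of all genes. In NWD2 against AIN76A they numbered 0 with library size scaling, against 26.1% of all genes. There were 1 with a filter of 1 CPM in 2 libraries, against 23.7%, and 4 with thinned counts, against 24.6%. Rnf2 in NWD2 against AIN76A turned to -0.0036 with the i5 term. The term also took Cbx7 to -0.040 and Ezh1 to -0.060 there, against -0.61 and 0.43 without it. This term rests on NWD1 replicate 3 against the other NWD1 libraries. Leaving out 1 library at a time gave 0 to 1 called genes in NWD2 against NWD1 (1 without NWD2 replicate 2) and in the joint test (1 without NWD2 replicate 2 or NWD1 replicate 3), members at an unadjusted p under 0.05 of 0 to 4, 0 to 4 and 0 to 1, moved by either NWD2 library, members' medians of -0.92 to -0.037, -0.61 to 0.15 and 0.078 to 0.23, and members without overlap of 2 to 4 in NWD2 against NWD1 and 2 to 5 in NWD1 against AIN76A, the highest without NWD1 replicate 1 or 2 and without NWD1 replicate 3. Of all genes, 40.2% did not overlap in NWD2 against NWD1 without NWD1 replicate 1, and 35.5% without NWD1 replicate 2. In NWD1 against AIN76A without NWD1 replicate 3 the share was 31.3%. Leaving out 1 library moved Cbx7 in NWD2 against AIN76A between -2.24 and 0.13, and Ezh2 over Ezh1 there between -1.78 and 0.29. Rnf2 over Ring1 in NWD1 against AIN76A moved between -0.40 and 0.0037. Pcgf2 over Bmi1 moved between -0.73 and 0.29, -0.61 and 0.54, and -0.39 and 0.75 in the same order of comparisons. A lone library of a diet is assumed to vary like the others.

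With the replicate number as a block, 0, 1 and 0 genes and 0 members were called. Deviations of same-numbered libraries correlated between -0.0002 and 0.26, not all above 0.1. In a diet of 2 libraries the deviations of a gene are equal and opposite, so few of these correlations are independent. Whether libraries of the same number share more than the number cannot be told from them. Depth limits Pcgf2, with 16 counts in its lowest library.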
